A study of Mus musculus with 6 samples.

Results

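Molecular chaperones of the cytosol and the mitochondria bind unfolded proteins and help them to fold, and cochaperones choose their clients and drive their cycle. HSP70 proteins take up clients with the help of J-domain proteins, HSP90 receives clients from HSP70 through adaptors and matures kinases and hormone receptors, and the CCT ring folds actin and tubulin. Heat shock factors bind repeated short elements in the promoters of many of these genes and switch them on under protein stress. In B cells chaperone demand rises with activation and growth. The genes described here are 41 chaperone and cochaperone genes of these families, taken by gene symbol: HSP70 and HSP110, HSP90, small heat shock, J-domain and mitochondrial chaperone genes, cochaperones of HSP70 and HSP90, heat shock factors and the CCT ring. All 41 were found among the 55487 gene IDs, and 40 passed the filter on low counts. The 1 gene that did not was the small heat shock gene Hspb1, whose reads came to 1 count in WT replicate 2 and to 0 elsewhere. In the libraries without a read, a count of 0 allows up to 0.105 to 0.146 CPM depending on the library (counting error only).

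RNA was sequenced from marginal zone (MZ) B cells of 14-week-old mice, enriched for B cells by negative selection and then sorted by flow cytometry, in 3 libraries from CD55KO mice and 3 libraries from WT C57BL/6 mice. CD55 is a surface regulator of the complement system that speeds the decay of its convertases. CD55KO mice lack it, and the labels give neither the form of the deletion nor the strain on which it was kept. Nor do they state that each library stands for its own mouse, so p-values describe the spread among these 6 libraries, which may be technical.

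Depth ranged from 24961343 to 29209647 counts in the CD55KO libraries and from 20056111 to 30784090 counts in the WT libraries. The targeted gene Cd55 averaged 7.53 ± 1.36 CPM across CD55KO libraries and 118 ± 7.69 CPM across WT libraries (SD, n = 3), where CPM is a gene's share of the reads of its library, scaled by TMM. The markers of B cells (summed level 12730 to 13850 CPM in CD55KO and 12430 to 14490 CPM in WT) and of MZ B cells (3206 to 3470 CPM in CD55KO and 3105 to 3346 CPM in WT) were high in every library. Of the 7 MZ B cell markers none passed, and 6 had positive log2 fold changes and 1 a negative one. Among them Notch2 stood at 121% of WT with all CD55KO libraries above all WT libraries (edgeR adjusted p = 0.283). Markers of other cells also moved with genotype or library. Of 7 tested plasma cell markers 1, Xbp1, passed and 5 had negative log2 fold changes (summed level 998.5 to 1155 CPM in CD55KO and 1097 to 1225 CPM in WT), while the plasma cell receptor gene Tnfrsf17 had 0 counts in each CD55KO library, against 4, 1 and 0 counts in WT replicates 1 to 3. Of 7 germinal centre markers 1, Gcsam, passed and 6 were negative (19.1 to 28.9 CPM in CD55KO and 25.8 to 60.9 CPM in WT), and of 12 cell cycle genes 11 were negative (907 to 1072 CPM in CD55KO and 1002 to 1227 CPM in WT), with WT replicate 1 the highest library in both lists and no cell cycle gene past the threshold. All 4 follicular B cell markers had positive log2 fold changes and none passed (summed level 1180 to 1505 CPM in CD55KO and 1103 to 1185 CPM in WT). Among them Ighd, the IgD heavy chain gene, stood at 129% of WT with all CD55KO libraries above all WT libraries (edgeR adjusted p = 0.187). Macrophage markers summed to 23.0 to 27.1 CPM in CD55KO and 15.9 to 23.3 CPM in WT, and erythroid markers to 35.9 to 1993 CPM in CD55KO and 105 to 4364 CPM in WT, none of them past the threshold. Their part in the results on chaperones was not tested. In bulk RNA, fewer cells of a type and less RNA per cell cannot be told apart.

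The letters bound by heat shock factors are shown first, because many genes of this group are known targets of those factors; a match is a description of the letters, not a site of binding. Promoter windows of 250 bases before to 50 bases after the transcript start (RefSeq, GRCm38.p6) were matched for 33 of the 41 genes. Hspa8, Hsp90aa1, Hsp90ab1, Hspa9, St13, Ppid, Hsf1 and Cct4 had no entry. The motif searched was 3 alternating units, GAANNTTCNNGAA or TTCNNGAANNTTC, which are reverse complements of each other, so the search covers both strands, and matches that overlapped were each counted. It was present for 5 of the 33 genes (15.2%), against 0.662% of the 27025 genes with a window. The shorter 2-unit motifs, GAANNTTC or TTCNNGAA, lie within the longer motif and were present for 17 of the 33 genes (51.5%). They stood in 45.2% of the 42 windows of these genes, against 15.1% of all 32851 windows. In the 30-base stretches below, written 5′ to 3′ on the strand of the gene, capitals mark the matched letters.
Chordc1 (chr9:18292260-18292289, plus strand): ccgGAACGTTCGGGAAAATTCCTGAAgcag
Dnajb6 (chr5:29735844-29735873, plus strand): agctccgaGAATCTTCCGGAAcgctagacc
Hspd1 (chr1:55088053-55088082, minus strand): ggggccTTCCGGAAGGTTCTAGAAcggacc
Hspe1 (chr1:55088053-55088082, plus strand): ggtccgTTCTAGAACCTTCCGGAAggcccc
Hsph1 (chr5:149636279-149636308, minus strand): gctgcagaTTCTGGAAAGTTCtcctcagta
Fkbp4, 2 units (chr6:128438789-128438818, minus strand): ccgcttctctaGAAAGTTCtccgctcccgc
Hspa1a, 2 units (chr17:34972242-34972271, minus strand): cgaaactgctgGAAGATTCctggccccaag
Hspa1b, 2 units (chr17:34959324-34959353, minus strand): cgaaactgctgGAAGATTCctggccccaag

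Hspd1 and Hspe1, which encode the mitochondrial chaperonin and its lid, start back to back, and their sequences above are the same stretch read on the 2 strands. The stretches of Hspa1a and Hspa1b are identical. Chordc1 held 3 overlapping matches to the 3-unit motif that start between base -4 and base 7 of its window. Stip1 and Ahsa1 held neither motif in their windows, which says only that these letters are not there. The 100 bases before the start of Stip1 are shown because it was the member with the smallest p.
Stip1 (chr19:7040027-7040126, minus strand): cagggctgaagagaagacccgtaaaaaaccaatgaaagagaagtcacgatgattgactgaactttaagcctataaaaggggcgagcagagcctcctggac

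**Figure D1:**
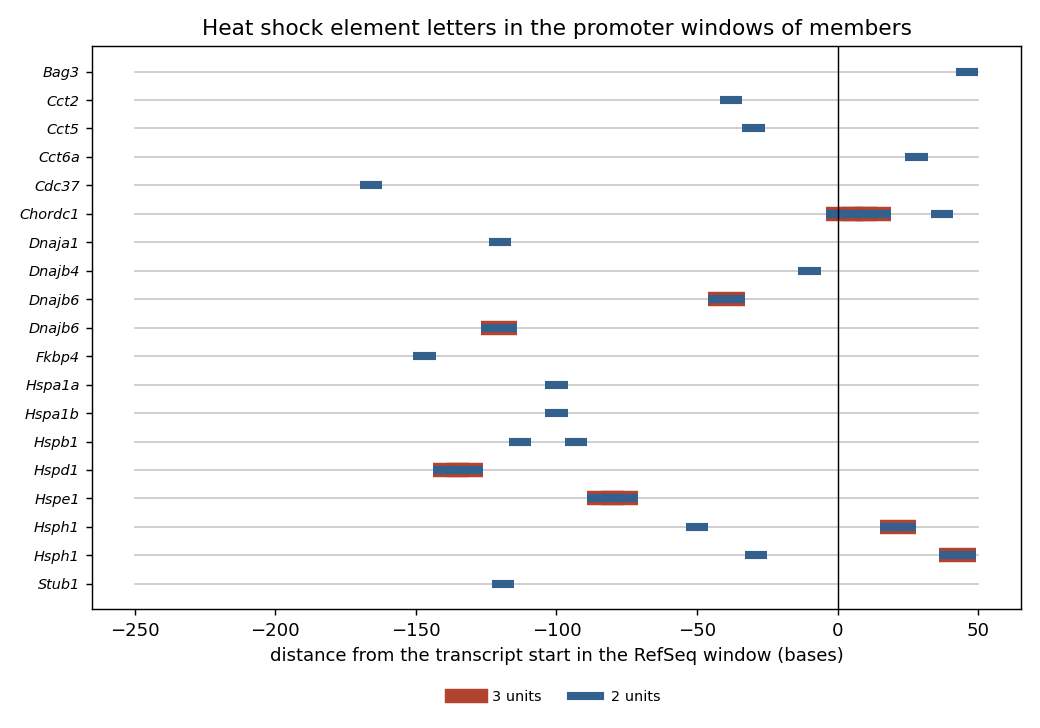
Positions of the heat shock element letters in the promoter windows of the member genes that held a match. The x axis is the distance in bases from the transcript start of the RefSeq window; red marks 3 units and blue 2 units, and genes with more than 1 window have a line for each. The 3-unit motif stands in the windows of 5 genes, around the start in Chordc1 and after it in Hsph1.

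In the edgeR fit with all libraries, the members past the threshold were all cochaperones of HSP90. Of the 40 tested members 3 fell in CD55KO, Stip1, Ahsa1 and Fkbp4, all of this class of 9, and none rose, while 37 did not pass (edgeR's quasi-likelihood test, adjusted p threshold 0.05). Over all 13794 genes tested, 0.261% were called lower and 0.138% higher. At an unadjusted p under 0.05 by the same test, 12 members were lower (4.3% of all genes) and 1 was higher (4.3% of all genes). By the DESeq2 Wald test 7 members were called lower (0.551% of all genes) and by limma-voom 4 (0.225% of all genes), with none higher by either tool (0.442% and 0.138% of all genes). Both tools also called Hsph1, which is not an HSP90 cochaperone, and DESeq2 also called Hspa8, Cct3 and St13.

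Stip1 encodes the adaptor that links HSP70 to HSP90 by binding the tails of both. It lies at chr19:7020702-7039967 on the minus strand (GRCm38, GENCODE M21) and had 107, 128 and 124 CPM in CD55KO replicates 1 to 3, against 162, 177 and 170 CPM in WT replicates 1 to 3. The 3 CD55KO libraries all lay below the 3 WT libraries, and CD55KO replicate 1 was the lowest. The log2 fold change of CD55KO over WT was -0.50 ± 0.08 (SE), a level of 70.5% of WT (edgeR adjusted p = 0.0064). Leaving out any 1 of the 6 libraries kept the call, with the highest edgeR adjusted p, 0.0427, where WT replicate 2 was absent.

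Ahsa1 encodes the activator of the HSP90 ATPase and lies at chr12:87266479-87273998 on the plus strand. It had 149, 171 and 161 CPM in CD55KO replicates 1 to 3, against 214, 226 and 212 CPM in WT replicates 1 to 3. The genotypes did not overlap, and the gap between the highest CD55KO and the lowest WT library was wider than the range within either genotype. The log2 fold change was -0.44 ± 0.08 (SE), a level of 73.7% of WT (edgeR adjusted p = 0.0141). The call was lost without CD55KO replicate 3 (edgeR adjusted p = 0.0631) and without WT replicate 2 (0.0884).

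Fkbp4 encodes FKBP52, an immunophilin of the HSP90 complex that carries steroid receptors, and lies at chr6:128429735-128438677 on the minus strand. It had 108, 140 and 138 CPM in CD55KO replicates 1 to 3, against 208, 201 and 175 CPM in WT replicates 1 to 3. All CD55KO libraries were below all WT libraries. The log2 fold change was -0.59 ± 0.10 (SE), a level of 66.2% of WT (edgeR adjusted p = 0.0149), and the call was lost without WT replicate 1 (edgeR adjusted p = 0.0752) and without WT replicate 2 (0.0884). Its paralog Fkbp5, which encodes FKBP51, a partner of the same complex that lowers hormone binding of the receptor, had the opposite direction. Fkbp5 had 6.78, 7.61 and 7.85 CPM in CD55KO replicates 1 to 3, against 4.47, 6.13 and 6.32 CPM in WT replicates 1 to 3 (log2 fold change 0.39 ± 0.18 SE, edgeR adjusted p = 0.566), and was the 1 member whose CD55KO libraries all lay above the WT libraries, as they did for 7.24% of all genes.

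Of the other HSP90 cochaperones none passed. Chordc1, which encodes an HSP90-binding zinc protein and holds the 3 overlapping matches above, had 59.7, 76.2 and 76.1 CPM in CD55KO replicates 1 to 3 and 88.5, 94.0 and 80.3 CPM in WT replicates 1 to 3 (log2 fold change -0.31 ± 0.10 SE, edgeR adjusted p = 0.283). Its groups did not overlap, with CD55KO replicate 1 the lowest library. Cacybp, Ptges3 (the p23 cochaperone), Ppid (cyclophilin 40) and Cdc37 (the kinase adaptor) had log2 fold changes of -0.21 to -0.08, and their groups overlapped.

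**Figure D2:**
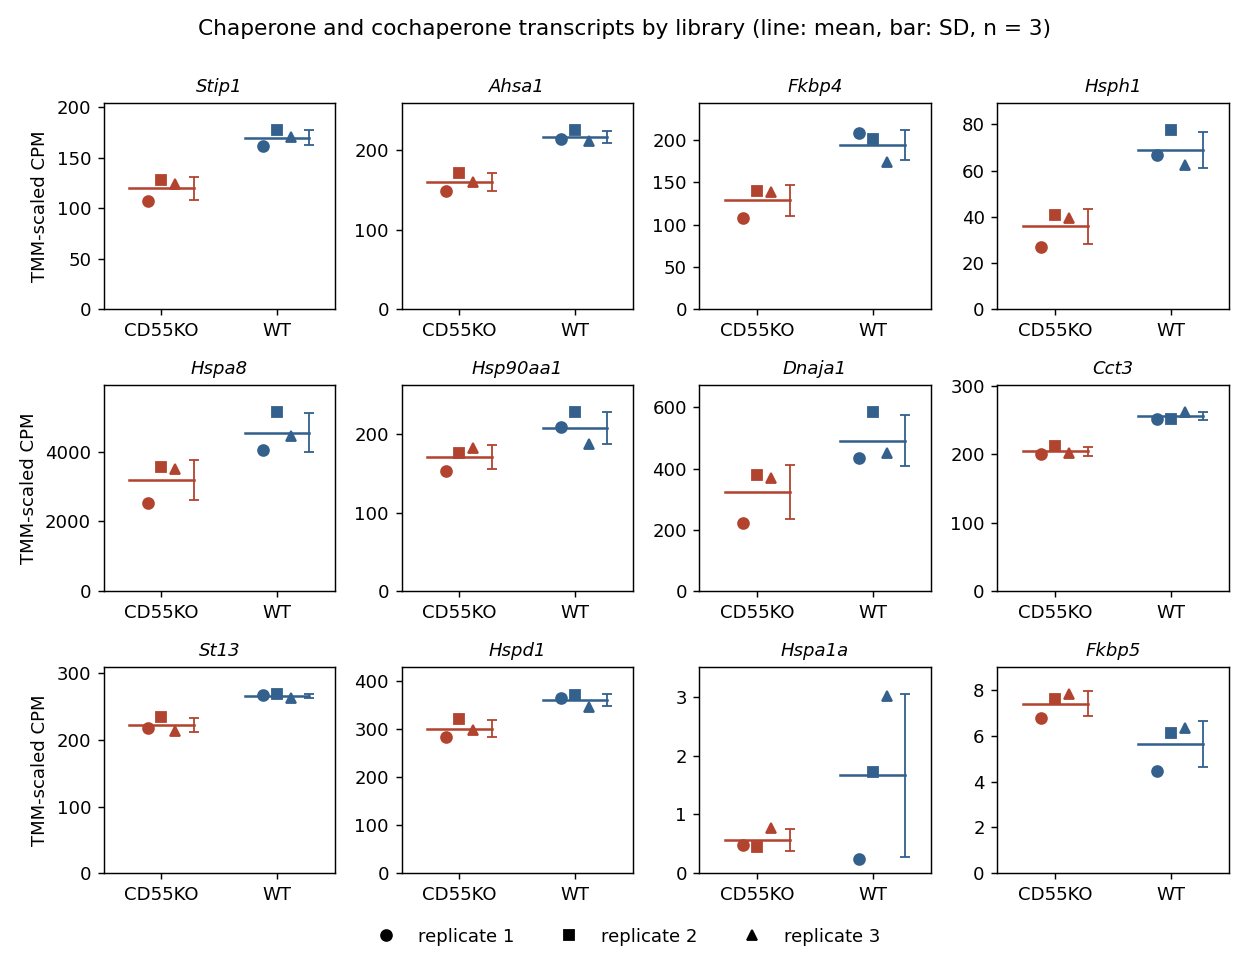
TMM-scaled CPM of 12 members in each library, CD55KO left and WT right; points are libraries with 1 symbol for each replicate number, lines are means and bars SD (n = 3 each), and every axis starts at 0. Of the genes drawn, Stip1, Ahsa1 and Fkbp4 fell in CD55KO, Fkbp5 lies higher in all 3 CD55KO libraries, and Hspa1a overlaps between genotypes.

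Among the HSP70 and HSP110 genes none of 6 passed. Hsph1, the HSP110 gene whose product exchanges the nucleotide of HSP70, came nearest. It had 27.0, 40.9 and 39.6 CPM in CD55KO replicates 1 to 3, against 66.5, 77.7 and 62.3 CPM in WT replicates 1 to 3. Every WT library was at least 62.3 CPM and no CD55KO library exceeded 40.9 CPM. The log2 fold change was -0.94 ± 0.16 (SE), a level of 52.0% of WT, and edgeR's adjusted p was 0.0535, on the far side of the threshold. It was 0.000673 without CD55KO replicate 1 and 0.0396 without CD55KO replicate 2, and 0.0932 to 0.167 without any of the other 4 libraries. DESeq2 (adjusted p = 5.4e-09) and limma-voom (0.0097) called it.

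Hspa8, the constitutive HSP70 of the cytosol, was the most abundant member and had 2524, 3558 and 3495 CPM in CD55KO replicates 1 to 3, against 4038, 5141 and 4453 CPM in WT replicates 1 to 3. The groups did not overlap (log2 fold change -0.51 ± 0.13 SE, edgeR adjusted p = 0.191). By the DESeq2 Wald test it was called (adjusted p = 0.0026). Per kilobase of annotated exon Hspa8 stood at 742 CPM in CD55KO and 1056 CPM in WT, ahead of the HSP90 gene Hsp90ab1 at 530 CPM per kilobase in CD55KO and 604 in WT. The inducible HSP70 genes were at the other end of the range.

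Hspa1a had 12.9, 11.4 and 22.2 estimated counts in CD55KO replicates 1 to 3, against 5.27, 54.3 and 84.7 estimated counts in the WT libraries 1 to 3. WT replicate 1 was the lowest library and the other WT libraries the highest, so the groups overlapped. In CPM it averaged 0.564 ± 0.179 in CD55KO and 1.66 ± 1.39 in WT (SD, n = 3; log2 fold change -1.57 ± 0.69 SE, edgeR adjusted p = 0.581), and without WT replicate 1 edgeR's adjusted p was 0.0391. Hspa1b had 8.45, 11.95 and 18.55 estimated counts in CD55KO replicates 1 to 3 and 5.73, 55.9 and 11.1 estimated counts in the WT libraries 1 to 3. WT replicate 2 stood far above the rest, and without it the log2 fold change was 0.48, against -0.81 with all libraries. The coding sequences of Hspa1a and Hspa1b are 99.5% identical, so reads of either gene can be given to the other and both values are uncertain. Hspa4 and Hspa4l, HSP110 relatives of Hsph1, had log2 fold changes of 0.04 ± 0.09 and -0.02 ± 0.19 (SE), with overlapping libraries.

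The HSP90 genes themselves did not pass. Their log2 fold changes were nearer to 0 than those of the called cochaperones, which were picked by passing the threshold. By class, the median was -0.24 for HSP90 and -0.21 for the 9 HSP90 cochaperones. Hsp90aa1, the inducible form, had 154, 177 and 182 CPM in CD55KO replicates 1 to 3 and 208, 228 and 187 CPM in WT replicates 1 to 3 (log2 fold change -0.29 ± 0.09 SE, edgeR adjusted p = 0.296). Hsp90ab1, the constitutive form, averaged 1588 ± 113 CPM in CD55KO and 1810 ± 129 CPM in WT (n = 3, SD; log2 fold change -0.19 ± 0.09 SE, edgeR adjusted p = 0.592). Neither gene overlapped between genotypes, though CD55KO replicate 3 and WT replicate 3 lay close together for Hsp90aa1. Whether the HSP90 genes and their cochaperones differ in change was not tested.

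J-domain proteins deliver clients to HSP70 and start its ATP hydrolysis, and none of the 5 genes passed. Dnaja1 had 224, 379 and 370 CPM in CD55KO replicates 1 to 3, against 436, 586 and 453 CPM in WT replicates 1 to 3. The groups did not overlap, yet CD55KO replicate 1 stood far below the other CD55KO libraries (log2 fold change -0.60 ± 0.24 SE, edgeR adjusted p = 0.581), and without that library the log2 fold change was -0.39. Dnajb1, which works with HSP110 in protein disaggregation, had 72.3, 94.8 and 103 CPM in CD55KO replicates 1 to 3 and 100, 139 and 101 CPM in WT replicates 1 to 3, with overlap. Dnaja2, Dnajb4 and Dnajb6 had log2 fold changes of -0.06 to -0.00. Dnajb6 carries the 3-unit heat shock motif, and whether motif and change are related was not tested.

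Other HSP70 cochaperones are St13, which holds HSP70 in its client-bound state, the exchange factors Bag1 and Bag3, and the ubiquitin ligase Stub1. None of the 4 passed. St13 had 218, 234 and 214 CPM in CD55KO replicates 1 to 3 and 267, 269 and 263 CPM in WT replicates 1 to 3, and the range within WT was narrow (log2 fold change -0.26 ± 0.08 SE, edgeR adjusted p = 0.247). Bag1 had 5.21, 4.49 and 6.09 CPM in CD55KO replicates 1 to 3 and 7.38, 6.77 and 6.75 CPM in WT replicates 1 to 3 (log2 fold change -0.40 ± 0.17 SE, edgeR adjusted p = 0.537). Both genes separated the genotypes, whereas Bag3 and Stub1 did not.

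Of the 4 mitochondrial chaperone genes none passed and all had negative log2 fold changes, from -0.26 to -0.08. Hspd1, which encodes HSP60, had 284, 321 and 297 CPM in CD55KO replicates 1 to 3 and 364, 371 and 346 CPM in WT replicates 1 to 3, without overlap (log2 fold change -0.26 ± 0.08 SE, edgeR adjusted p = 0.297). Hspe1, its HSP10 partner from the shared promoter, averaged 172 ± 19.1 CPM in CD55KO and 188 ± 5.54 CPM in WT (n = 3, SD), with overlap. Trap1, the mitochondrial HSP90, averaged 102 ± 3.44 CPM in CD55KO and 112 ± 2.75 CPM in WT (n = 3, SD), without overlap (edgeR adjusted p = 0.602), and Hspa9, the mitochondrial HSP70, overlapped.

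None of the 8 genes of the CCT ring passed, and all had negative log2 fold changes. Cct3 had 200, 212 and 201 CPM in CD55KO replicates 1 to 3, against 252, 252 and 262 CPM in WT replicates 1 to 3. The gap between genotypes was wider than the range within either (log2 fold change -0.32 ± 0.08 SE, edgeR adjusted p = 0.1002), and the DESeq2 Wald test called it (adjusted p = 0.0015). The other 7 subunit genes had log2 fold changes of -0.15 to -0.02, and Cct6a, Cct7 and Cct8 also separated the genotypes. Cct5, the subunit gene with the highest level per kilobase (210 CPM per kilobase in CD55KO and 213 in WT), averaged 580 ± 44.7 CPM in CD55KO and 588 ± 14.8 CPM in WT (n = 3, SD). Whether Cct3 differs from the other subunit genes in change was not tested.

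The heat shock factor genes did not pass either. Hsf1, the main activator of the heat shock response, had 57.1, 48.8 and 60.2 CPM in CD55KO replicates 1 to 3 and 56.9, 66.6 and 65.4 CPM in WT replicates 1 to 3 (log2 fold change -0.19 ± 0.09 SE, edgeR adjusted p = 0.602). Hsf2 averaged 6.30 ± 1.45 CPM in CD55KO and 5.67 ± 0.713 CPM in WT (n = 3, SD). The libraries of the genotypes overlapped for both genes.

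**Figure D3:**
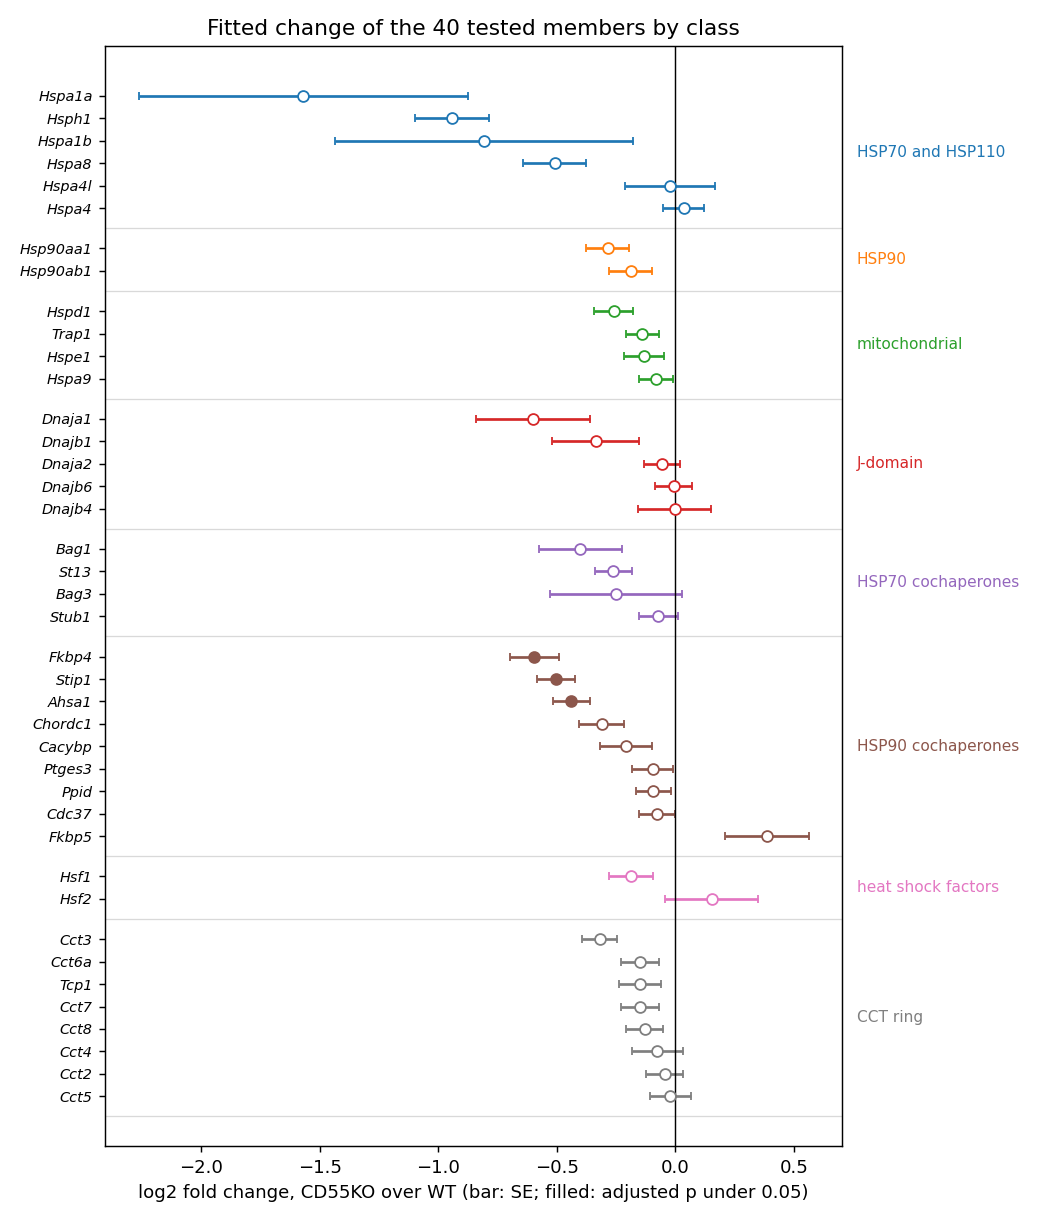
Fitted log2 fold change, CD55KO over WT, of the 40 tested members by class; bars are SE and filled points passed an adjusted p of 0.05 in edgeR. The filled points are Fkbp4, Stip1 and Ahsa1, and 37 of the 40 points lie left of 0.

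Across the 40 tested members 37 log2 fold changes were negative, against 49.6% of all genes, and the median was -0.15, against 0.001 over all genes. The medians by class were -0.66 for HSP70 and HSP110, -0.24 for HSP90, -0.26 for the HSP70 cochaperones and -0.21 for the HSP90 cochaperones. They were -0.14 for the CCT ring, -0.14 for the mitochondrial genes, -0.06 for the J-domain genes and -0.02 for the heat shock factors. The HSP70 and HSP110 median lies between Hspa1b and Hspa8, and both Hspa1a and Hspa1b had low counts and overlapping libraries. The 12 members lower at an unadjusted p under 0.05 by edgeR were 4 HSP90 cochaperones, 3 HSP70 and HSP110 genes, 2 HSP70 cochaperones and 1 gene each of HSP90, the mitochondria and the CCT ring, with no J-domain gene and no heat shock factor. For 17 members all CD55KO libraries lay below all WT libraries, as they did for 6.84% of all genes. The members were chosen with earlier results of these data known, so these shares, and those of the calls above, are descriptions only. The largest differences were not spread evenly within a class: in the HSP70 class they were those of Hspa1a, Hsph1, Hspa1b and Hspa8, while Hspa4 and Hspa4l stayed within 0.04 of 0 on the log2 scale.

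The libraries of a genotype were not alike for these genes. Among the CD55KO libraries alone, replicate 1 was the lowest for 30 of 40 members (75.0%), against 36.0% of all genes. Among the WT libraries alone, replicate 2 was the highest for 21 (52.5%), against 32.9% of all genes. Of all 6 libraries, CD55KO replicate 1 was the lowest for 26 members (65.0%), against 19.4% of all genes. WT replicate 2 was the highest of the 6 for 19 (47.5%), against 15.9% of all genes. The shares over all 6 libraries also carry the difference between genotypes. The mean log2 CPM of the 40 members came to 6.19, 6.39 and 6.41 for CD55KO replicates 1 to 3, against 6.48, 6.66 and 6.52 for the WT libraries 1 to 3. Without CD55KO replicate 1, 32 of 40 log2 fold changes were negative, with a median of -0.12, and 4 members were called lower, Hsph1, Stip1, Fkbp4 and Ahsa1. Without WT replicate 2, Stip1 alone was called. The 41 genes held 0.925, 1.09 and 1.06% of all counts for CD55KO replicates 1 to 3, against 1.24, 1.39 and 1.2% for the WT libraries 1 to 3. With Hspa8 left out these shares were 0.667, 0.740 and 0.719% in CD55KO and 0.824, 0.868 and 0.774% in WT.

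**Figure D4:**
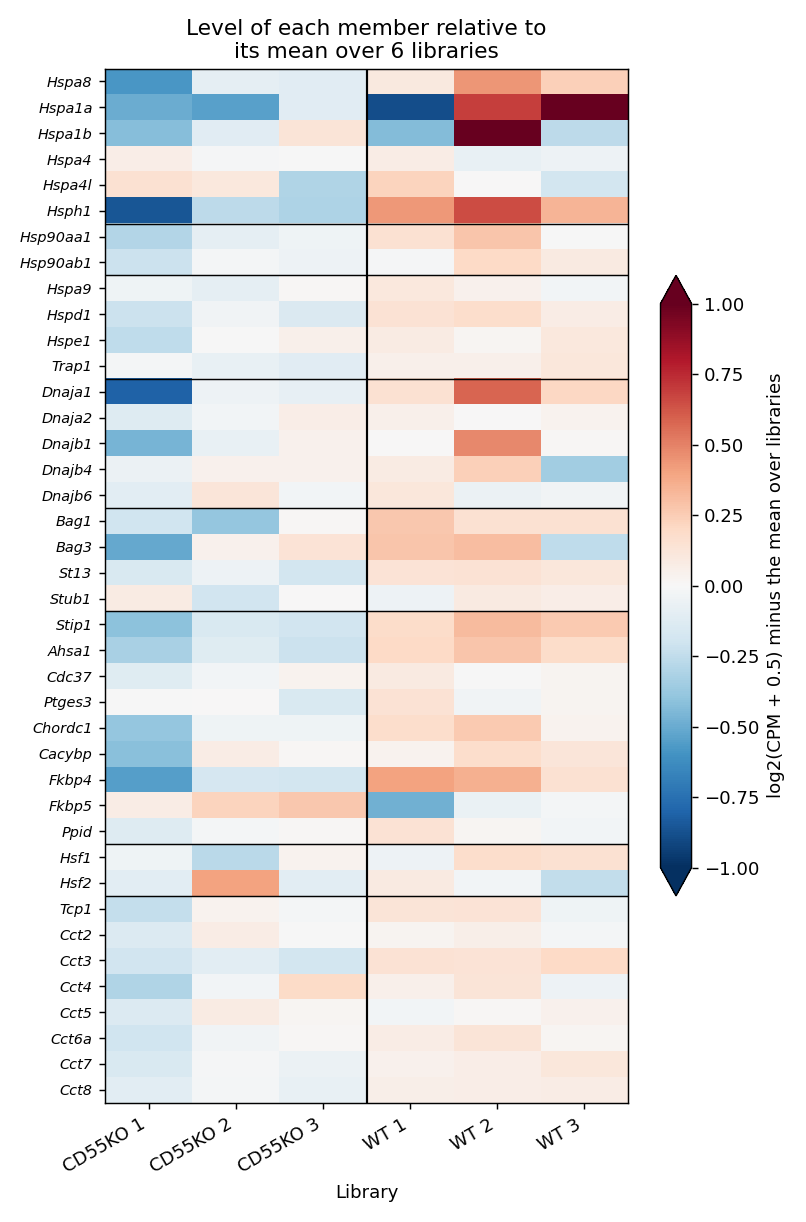
Level of the 40 tested members in each library, as log2(CPM + 0.5) minus the mean of the gene over the 6 libraries; rows are grouped by class and the black vertical line parts CD55KO (left) from WT (right). CD55KO replicate 1 is the lowest library for 26 members and WT replicate 2 the highest for 19, and the colour scale ends at 1 on either side.

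Genes around the members were counted for comparison. Of 42 tested genes of the wider cytosolic chaperone network none passed by edgeR, 3 were lower at an unadjusted p under 0.05, and the median log2 fold change was -0.04. The member of that list with the smallest p was Ahsa2, the paralog of Ahsa1, which had 30.9, 37.3 and 37.7 CPM in CD55KO replicates 1 to 3 and 46.7, 49.7 and 43.2 CPM in WT replicates 1 to 3 (log2 fold change -0.40 ± 0.10 SE, edgeR adjusted p = 0.118). Of 9 genes for prefoldin, which hands clients to the CCT ring, and other CCT partners none passed and none had an unadjusted p under 0.05 by edgeR (median 0.01). The smallest p was that of Pfdn5, at 369 ± 66.7 CPM in CD55KO and 331 ± 24.7 CPM in WT (n = 3, SD; edgeR adjusted p = 0.789). Of 14 other genes of mitochondrial protein quality control none passed by edgeR and 1, Clpb, had an unadjusted p under 0.05 (median -0.04; Clpb edgeR adjusted p = 0.537).

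Chaperones and folding enzymes of the endoplasmic reticulum were counted in the same way. Of 18 tested genes 8 fell and none rose by edgeR, with a median of -0.38, and the difference between the lists was not tested. Hsp90b1, the HSP90 of that compartment, stood at 67.6% of WT (edgeR adjusted p = 0.0023), while its cytosolic relatives Hsp90aa1 and Hsp90ab1 stood at 82.0% and 87.8%. The HSP40 gene Dnajb11 stood at 72.0% (edgeR adjusted p = 0.0092) and the genes Sdf2l1 and Creld2 at 56.0% each. The plasma cell markers named earlier were lower in CD55KO in mean log2 CPM (4.56 to 4.65 in CD55KO and 4.96 to 5.39 in WT). Their summed level overlapped between genotypes, and of the 7 tested 5 had negative and 2 positive log2 fold changes. The part of these markers in the fall of the folding genes was not tested.

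Processing alternatives, 6 of them leaving out 1 library, gave the members differing numbers of calls. Stip1 was called in all 14 other fits, Ahsa1 and Fkbp4 in 12 each, Hsph1 in 9 and Hspa8 in 3. Hspa1a was called in 2 of the 13 fits that kept it, and Cct3, Dnaja1, Dnajb1, Chordc1 and St13 in 1 each. The 19 members with estimated counts that were not whole in at least 1 library include Stip1, Ahsa1 and Hspa8, and the 22 with whole counts throughout include Fkbp4, Hsph1 and Cct3. Such values can come from reads divided between genes or transcripts, and how the reads of these genes were divided was not tested. None of the 41 genes lies near Cd55: the 3 on the same chromosome, Hspd1, Hspe1 and Cacybp, are 29.7 to 75.4 Mb away.

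**Figure D5:**
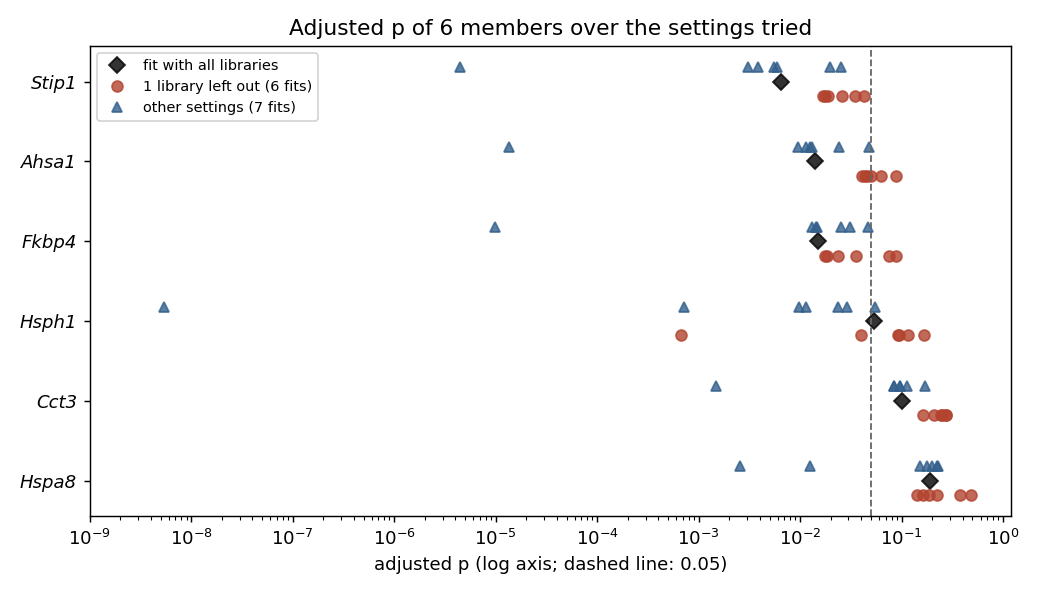
Adjusted p (log axis, dashed line at 0.05) of 6 members in the edgeR fit with all libraries, in the 6 fits that leave out 1 library and in 7 of the 8 other settings; the fit without a count filter is not drawn. Stip1 stays left of the line throughout, and Cct3 crosses it in 1 setting.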

How the data were processed

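RNA of the sorted MZ B cells (RNeasy micro columns) was made into libraries with a SMARTer Ultra Low kit, per the labels' protocols. That kit does not mark strand. The authors deposited unscaled estimated counts for each gene. DRAGEN, edgeR and limma are named, without versions or roles, in the submitters' processing notes; of the build, nothing is given in the sources used here. Repeated rows of an ID, identical throughout, were removed (287 rows), and estimated counts were rounded. edgeR 4.0.16 (R 4.3.3) was fitted with genotype alone to the 13794 genes kept by filterByExpr (minimum count 10), with TMM, robust dispersions, the quasi-likelihood test and Benjamini-Hochberg adjustment over all genes. CPM is TMM-scaled. Fold changes are CD55KO over WT. With 3 libraries against 3, an exact permutation test cannot go below p = 0.1, so separation between groups is given as a description. The test was checked on simulated data, in which the planted changes were larger than those of the called members. Positions and exon lengths came from GENCODE M21 through gene IDs, promoters from RefSeq. No 2 replicates were near-duplicates (chi-square over its degrees of freedom, 13.2 to 33.1).

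Members with an unadjusted p under 0.05 or separated libraries were named, at most 12 in full, with Hspa1a, Hspa1b and Hsp90aa1; of the others, values of Dnaja1, Dnajb1, Hsp90ab1, Hspe1, Trap1, Cct5 and Hsf1 and Hsf2 were added after they were seen. For other lists, called genes (at most 4) or the gene with the smallest p were named. Members and lists were chosen with earlier results of these data known. Alternatives were other scalings, DESeq2 1.42.0, limma-voom (limma 3.58.1), a replicate block, other filters (none, or 50 counts in 3 libraries), a non-robust fit and leaving out each library.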

Additional observations from a re-analysis of the deposited data

How the results depend on the processing

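The median log2 fold change of the members stayed negative under every alternative tried (-0.20 to -0.12). Members called lower, 3 with all libraries, were 6 with the replicate block, 8 without a count filter and 7 by the DESeq2 Wald test, and 1 to 4 when a library was left out; none was called higher. Over all genes, 55 were called with all libraries, 232 without a count filter, 137 by DESeq2 and 37 to 53 when a library was left out; the causes were not tested. Whether the replicate numbers pair the libraries is not known. Over all genes the correlation of deviations between same-numbered libraries was 0.08, -0.12 and 0.17, which cannot settle it. The mean log2 CPM of the members was lowest in replicate 1 of both genotypes, and highest in CD55KO replicate 3 and WT replicate 2. The block is given here alone, where Hsph1 (edgeR adjusted p = 0.000711), Hspa8 (0.0126) and Dnaja1 (0.0277) were added. Signs turned for uncalled members: Dnajb4 with the block (0.017), by limma-voom (0.018) and without CD55KO replicate 1 (0.033), WT replicate 1 (0.035) or, as highest, WT replicate 2 (0.136; lowest -0.162); Dnajb6 without CD55KO replicate 1 (0.044), CD55KO replicate 3 (0.002) or WT replicate 1 (0.05; lowest -0.072); Hspa4l without CD55KO replicate 3 (0.115) or WT replicate 1 (0.091; lowest -0.126); Hspa1b without WT replicate 2 (0.481; lowest -1.178); and, without CD55KO replicate 2, Stub1 (0.002; lowest -0.13) and Hsf2 (-0.052; highest 0.247). Without CD55KO replicate 1, Cct2 (0.013; lowest -0.096), Cct4 (0.043; lowest -0.205) and Cct5 (0.041; lowest -0.07) turned. Low counts limit Hspa1a, Hspa1b and Bag3.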

Other observations

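Immediate early and cold-inducible genes were counted beside the chaperones, and whether these lists differ from the members was not tested. Of 16 tested immediate early genes, which respond to stimulation and to handling of cells, 14 had positive log2 fold changes (median 0.08), and none passed by edgeR, where 3 were higher at an unadjusted p under 0.05. Fosb had 7.26, 6.84 and 5.25 CPM in CD55KO replicates 1 to 3 and 3.64, 3.93 and 3.77 CPM in WT replicates 1 to 3, without overlap (log2 fold change 0.77 ± 0.19 SE, edgeR adjusted p = 0.132). Both cold-inducible RNA-binding genes lay higher in CD55KO, in all 3 libraries. Rbm3 rose, with 215, 218 and 224 CPM in CD55KO replicates 1 to 3 and 156, 151 and 148 CPM in WT replicates 1 to 3 (edgeR adjusted p = 0.0014). Cirbp, named after its values were seen, had 186, 126 and 117 CPM in CD55KO replicates 1 to 3 and 78.3, 65.7 and 79.4 CPM in WT replicates 1 to 3 (edgeR adjusted p = 0.247). CD55KO replicate 1, the lowest library for most members, was the highest for Cirbp but the lowest CD55KO library for Rbm3.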
